A study of Mus musculus with 6 samples.

Results

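The genes described here are 35 mouse genes of the hypoxia response and of glycolysis, taken from a list of symbols, and 33 of them were measured among the 19938 genes of the array under a single symbol. Gpi1 and Eno1 had no row under a single symbol and were not analysed here. A gene with several rows was read from the row with the highest mean over the 6 arrays. The genes were measured in GFP-positive cells sorted from the spleen of mice with AML1-ETO9a leukaemia, on 1 microarray per sample. AML1-ETO9a is a truncated product of the t(8;21) translocation. All 6 samples carried it and came from the C57BL/6 strain: mid-gestation fetal liver cells were transduced with AML1-ETO9a, transplanted, and the recipients were given tamoxifen 4 weeks later. The 3 AES wildtype samples came from cells with wildtype Aes alleles and were taken when the mice had died of leukaemia. The 3 AES knockout samples came from cells with floxed Aes and were taken when the experiment ended, and time of collection and genotype cannot be told apart. The Cre transgene, the age of the recipients and whether each sample came from its own mouse are not stated in the labels. The p-values therefore measure only the spread between these samples.

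AES is a short Groucho/TLE co-repressor. HIF-1 is the main transcription factor of the response to low oxygen. Its alpha subunit, encoded by Hif1a, is hydroxylated by the EGLN prolyl hydroxylases when oxygen is present, bound by VHL and degraded, so that its activity is set mostly at the level of the protein. In low oxygen it pairs with ARNT and raises transcription of glucose transporters, most glycolytic enzymes, the mitophagy receptor BNIP3 and the pyruvate dehydrogenase kinase PDK1, which together move glucose use from the mitochondrion towards lactate. Haematopoietic stem cells and leukaemic blasts are known for a high glycolytic rate.

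The deposited values were taken as log2 values. Precision is limited by the number of arrays. The median of an array lay between 6.47 and 6.65, no detection calls were used, and a value near or below the median may be background. Aes, listed as Tle5, had a wildtype mean of 11.11 and a knockout mean of 8.99, with every knockout array below every wildtype array. The blast markers Kit (10.60 to 11.80) and Myb (11.11 to 11.69) lay well above the medians on all 6 arrays. Mpo (6.08 to 10.08) and Cd34 (5.33 to 9.87) did so only on some arrays. All 10 listed blast markers were measured, with mean deviations from the 6-array mean of 1.14, -0.28 and -0.89 in wildtype and -1.09, 0.25 and 0.86 in knockout cells, lowest on knockout replicate 1 and wildtype replicate 3. On these arrays Ptprc lay at 5.76 and 6.80 and Ctsg at 5.42 and 5.84, and Cebpa (6.35 to 6.76) was near the median on every array. Late neutrophil markers split the arrays in both groups: S100a8 lay at 5.03 on knockout replicate 1 and 5.14 on wildtype replicate 3, and the remaining 4 arrays had 8.11 to 10.48. The 3 measured Y-linked genes, Uty, Kdm5d and Eif2s3y, were low on knockout replicates 1 and 3, where Uty lay at 4.14 and 4.77 against 9.03 to 9.30 elsewhere. Xist, which is expressed from the inactive X chromosome, had 9.11, 7.41 and 5.08 in wildtype and 4.88, 5.84 and 5.66 in knockout cells, above the array medians on wildtype replicates 1 and 2 alone.

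The comparison asked which genes differ between AES knockout and wildtype blasts. Of the 33 measured hypoxia and glycolysis genes, 24 had a higher mean in knockout cells and 9 a lower one, with a median log2 difference of 0.25, where all 19938 genes had a median of 0.003 and 50.9% had a higher mean. With limma and Benjamini-Hochberg adjustment over all genes, 0 members passed an adjusted p of 0.05 in either direction, and 0% of all genes did so. At an unadjusted p under 0.05, 6 members were higher (Bnip3, Hif1a, Pdk1, Pkm, Slc2a3 and Pgk1) and 0 lower, where 1.41% of all genes were higher and 1.12% lower, 2.53% together. For 5 members every knockout array lay above every wildtype array, 15.2% of the members against 3.65% of all genes. These were Bnip3, Hif1a, Pdk1, Pkm and Aldoa, each with an exact two-sided permutation p of 0.1, the smallest that 3 arrays against 3 allow. For 0 members every knockout array lay below, against 3.51% of all genes. The members were chosen with earlier results of these data known, and they share arrays and vary together. These counts and shares therefore describe the list and do not test it.

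**Figure D1:**
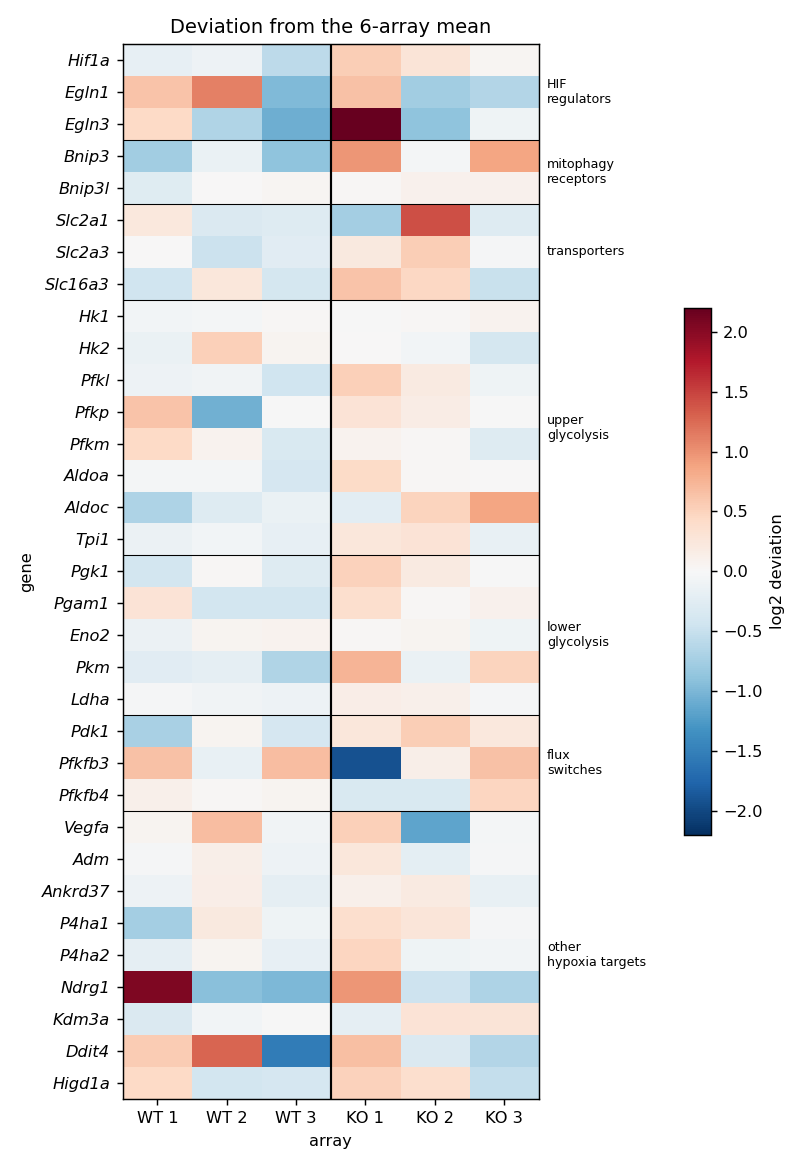
Deviation of each of the 33 measured genes (rows, grouped by role) from its own mean over the 6 arrays, in log2 units, on the 3 AES wildtype (WT) and 3 AES knockout (KO) arrays (columns). Red cells are above and blue cells below the gene's mean: knockout replicate 1 holds the highest value of 14 genes and wildtype replicate 3 the lowest value of 14.

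The difference was not spread evenly over the arrays, as the heat map of deviations shows. Knockout replicate 1 held the highest value of 14 of the 33 members, where it held the highest value of 27.0% of all genes. Wildtype replicate 3 held the lowest value of 14 members, against 9.64% of all genes, and wildtype replicate 1 of 9, against 26.0%. The mean deviation of the members from their 6-array means was 0.02, -0.02 and -0.31 on wildtype replicates 1 to 3 and 0.28, 0.05 and -0.02 on knockout replicates 1 to 3. Wildtype replicate 3 was thus the low array and knockout replicate 1 the high one, and the other 4 lay close to 0. Without knockout replicate 1 the median difference of the members was 0.16 and without wildtype replicate 3 it was 0.19, with 23 and 24 members higher. Without knockout replicate 2 the median was 0.17, and without knockout replicate 3 it was 0.36.

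The upstream 250 bases of RefSeq transcription starts were read for the members, since HIF-1 is known to act through short sites near the starts of its targets. The letters searched were ACGTG and GCGTG, the core to which HIF-1 binds, on both strands. A palindromic CACGTG holds ACGTG on each strand and counts as 2 overlapping matches. Of the 33 measured members 30 had a start in the RefSeq table, and 28 of these 30 (93.3%) had at least 1 match before at least 1 start, where 41.5% of all 27025 genes in the table did. A gene with several starts can count through any of them. Counted by start, 34 of 44 starts of members (77.3%) had a match, against 38.6% of all 32851 starts. The members were listed as hypoxia and glycolysis genes, and base composition was not matched between members and all genes, so these shares describe the list. The 4 sequences below belong to genes with an unadjusted p under 0.05, a regulator, a mitophagy receptor, a mitochondrial kinase and a glycolytic enzyme, with the matches in capitals and the transcription start just after the last base:
Hif1a (GRCm38.p6, chr12:73907617-73907866, + strand): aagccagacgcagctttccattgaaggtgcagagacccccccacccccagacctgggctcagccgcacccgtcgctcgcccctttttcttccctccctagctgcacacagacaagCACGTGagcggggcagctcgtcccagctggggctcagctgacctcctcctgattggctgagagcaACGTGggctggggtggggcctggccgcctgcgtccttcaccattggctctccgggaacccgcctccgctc
Bnip3 (GRCm38.p6, chr7:138909507-138909756, - strand): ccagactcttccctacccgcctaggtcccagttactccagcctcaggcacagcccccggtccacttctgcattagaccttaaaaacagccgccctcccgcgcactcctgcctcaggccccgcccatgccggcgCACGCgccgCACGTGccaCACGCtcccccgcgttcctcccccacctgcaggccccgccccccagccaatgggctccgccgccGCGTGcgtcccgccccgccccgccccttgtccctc
Pdk1 (GRCm38.p6, chr2:71872974-71873223, + strand): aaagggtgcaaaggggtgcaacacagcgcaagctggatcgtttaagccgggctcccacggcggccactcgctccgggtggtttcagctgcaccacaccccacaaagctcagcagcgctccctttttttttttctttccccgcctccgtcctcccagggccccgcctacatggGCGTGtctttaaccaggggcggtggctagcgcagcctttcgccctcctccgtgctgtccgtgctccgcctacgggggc
Pgk1 (GRCm38.p6, chrX:106186850-106187099, + strand): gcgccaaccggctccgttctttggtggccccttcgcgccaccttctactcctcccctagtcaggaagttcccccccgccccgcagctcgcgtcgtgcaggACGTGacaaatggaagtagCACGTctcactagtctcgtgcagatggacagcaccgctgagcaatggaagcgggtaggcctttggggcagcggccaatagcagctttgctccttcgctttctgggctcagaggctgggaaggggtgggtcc

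Hif1a had 3 matches, beginning 135, 134 and 70 bases before the start, of which the first pair is 1 palindromic CACGTG. Bnip3 had 5, beginning 117, 108, 107, 99 and 35 bases before it, also with a palindromic pair. Pdk1 had 1 match, GCGTG, at 78 bases before its first start and none before the second, and Pgk1 had 2, at 150 and 131 bases. Pkm had none before its first start and 1 before its second. Aldoa had 1 match, read before 2 of its 3 starts, at 202 and 126 bases, because the windows of these 2 starts overlap. Tpi1 and Eno2 were the 2 members with no match in the window. A match is a stretch of letters and says nothing of binding in these cells.

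**Figure D2:**
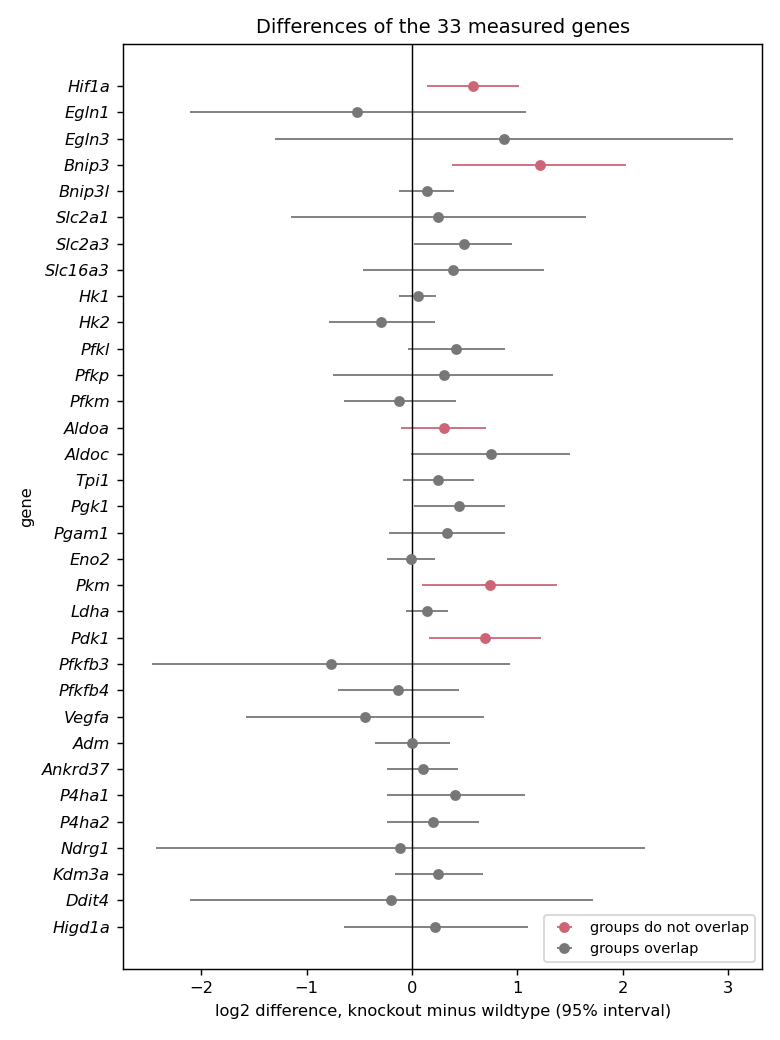
Log2 difference, AES knockout minus wildtype, of the 33 measured genes (rows, ordered by role), as points with 95% intervals from the limma fit, 3 arrays per group. Points lie to the right of 0 for 24 genes, and red marks the 5 genes whose groups did not overlap: Hif1a, Bnip3, Aldoa, Pkm and Pdk1.

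Among the regulators, Hif1a, which encodes the oxygen-regulated subunit of HIF-1, had values of 10.15, 10.22 and 9.76 in wildtype and 10.87, 10.61 and 10.38 in knockout cells. All 3 knockout arrays lay above the wildtype ones. The means were 10.04 ± 0.25 and 10.62 ± 0.25 (SD, n = 3 each), a 1.5-fold higher level in knockout cells (log2 difference 0.58, SE 0.18, limma unadjusted p 0.0188, adjusted p 1.00). The transcript level is not a measure of HIF-1 protein. Egln3, a prolyl hydroxylase that is itself induced by HIF-1, had 7.07, 5.97 and 5.57 in wildtype and 8.94, 5.75 and 6.54 in knockout cells. Only knockout replicate 1 stood out, 4 of the 6 values were below the array medians, and without that array the difference of 0.87 (SE 0.88) became -0.06. Egln1, the main oxygen sensor of this family, had 7.62, 8.11 and 6.03 in wildtype and 7.63, 6.22 and 6.35 in knockout cells, a difference of -0.52 (SE 0.64). High and low arrays occurred in both groups, and leaving out wildtype replicate 2 gave -0.09, whereas omitting the low wildtype array, replicate 3, gave -1.13.

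The mitophagy receptors BNIP3 and BNIP3L sit in the outer mitochondrial membrane and mark mitochondria for removal. Bnip3 had the smallest unadjusted p of the members (0.0122) and ranked 110 of 19938 genes by p. Its values were 8.26, 8.89 and 8.14 in wildtype and 10.00, 8.99 and 9.90 in knockout cells. Knockout replicates 1 and 3 lay more than 1 log2 unit above every wildtype array, while knockout replicate 2 lay just above wildtype replicate 2. The means were 8.43 ± 0.40 and 9.63 ± 0.56 (SD, n = 3 each), a level 2.31-fold higher with knockout (log2 difference 1.21, SE 0.34, 95% interval 0.38 to 2.03, limma adjusted p 1.00). The other row of Bnip3 had 8.08, 8.67 and 7.88 in wildtype and 9.52, 8.58 and 9.17 in knockout cells. Its difference was 0.88 (SE 0.31), and its groups overlapped. Knockout replicates 1 and 3 were also the arrays with low Y-linked genes, whose part in this result was not tested. Bnip3l, bright on every array, had 12.69, 12.97 and 12.99 in wildtype and 12.98, 13.04 and 13.05 in knockout cells, a difference of 0.14 (95% interval -0.12 to 0.40). Its groups overlapped through wildtype replicate 3, and a second row gave 0.17.

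**Figure D3:**
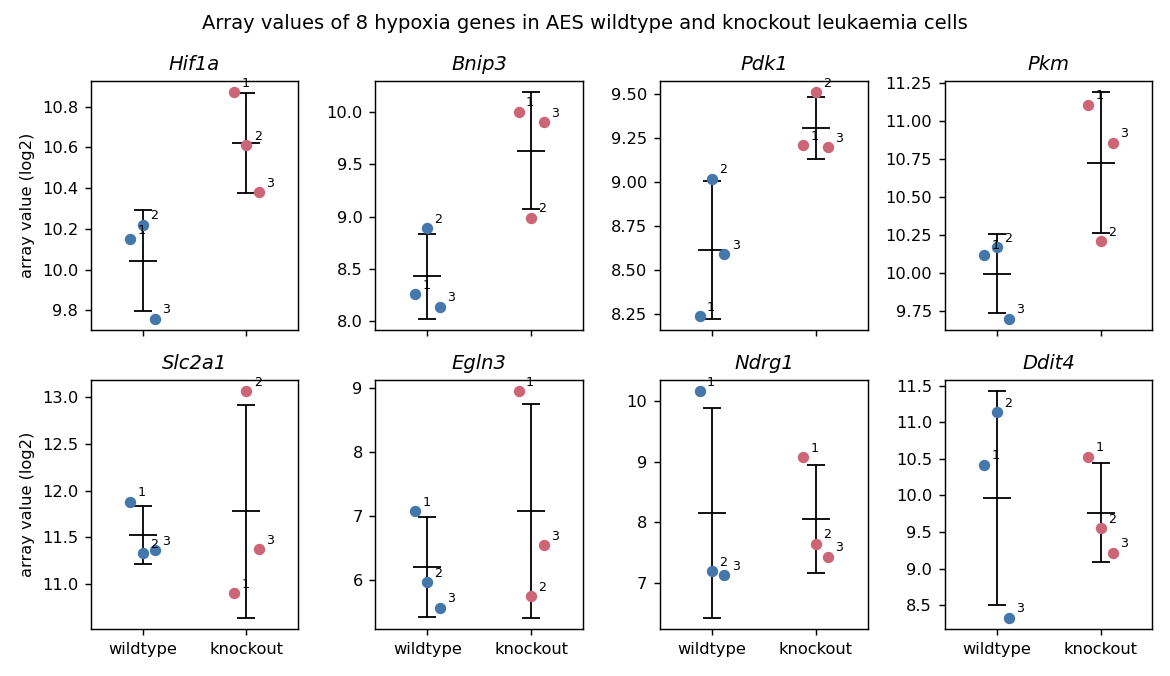
Array values (log2, axis differs by panel and does not start at 0) of Hif1a, Bnip3, Pdk1, Pkm, Slc2a1, Egln3, Ndrg1 and Ddit4 in AES wildtype (blue) and knockout (red) cells, each point 1 array with its replicate number, bars the mean ± SD of 3 arrays. The groups are apart in the upper panels, and in the lower panels single arrays such as knockout replicate 2 for Slc2a1 (13.06) and wildtype replicate 1 for Ndrg1 (10.16) stand away from the rest.

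All 3 transporters had higher means in knockout cells, and none passed the adjusted test. Slc2a3, which encodes the glucose transporter GLUT3, had 11.50, 11.02 and 11.25 in wildtype and 11.72, 12.04 and 11.47 in knockout cells. Only knockout replicate 3 reached into the wildtype range, and the level was 1.40-fold higher (log2 difference 0.49, SE 0.19, unadjusted p 0.0424, adjusted p 1.00 with limma). Slc16a3, the lactate exporter MCT4, had a difference of 0.39 (SE 0.35), with wildtype values from 9.69 to 10.38 and knockout values from 9.64 to 10.76. Array values of Bnip3l were given beside those of its relative Bnip3. Those of Slc2a1, Pfkfb3, Pfkp, Vegfa, Ndrg1 and Ddit4 are given because single arrays stood apart, a choice made after the values were seen. Slc2a1, the glucose transporter GLUT1, had 11.88, 11.33 and 11.36 in wildtype and 10.90, 13.06 and 11.37 in knockout cells. The highest and the lowest value were both in the knockout group, and the difference was 0.25 with all arrays and -0.39 without knockout replicate 2. That array also had the highest mean deviation of the erythroid markers, 5 measured of 12 listed. It was 1.46 there and between -1.05 and 0.62 on the other 5 arrays. The anion exchanger Slc4a1 reached 12.80 on it. Ermap varied little (11.85 to 12.27), and Klf1 was highest on knockout replicate 1 (10.39, against 10.28 on knockout replicate 2). The part of the erythroid markers in the Slc2a1 value was not tested. In bulk RNA, fewer cells of a type and less RNA per cell cannot be told apart.

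Upper glycolysis, from hexokinase to triose phosphate, had 8 measured members, of which 6 had higher means in knockout cells. Aldoa, the main aldolase, had 12.61, 12.62 and 12.28 in wildtype and 13.08, 12.68 and 12.66 in knockout cells. Its groups did not overlap, but knockout replicates 2 and 3 lay within 0.1 log2 units of wildtype replicate 2, and the difference was 0.30 (SE 0.16, limma adjusted p 1.00) and 0.16 without knockout replicate 1. Aldoc, the aldolase known from brain, had 8.31, 8.71 and 8.84 in wildtype and 8.76, 9.48 and 9.86 in knockout cells. Knockout replicates 2 and 3 were the high arrays, unlike for most members, and the difference was 0.75 (95% interval -0.01 to 1.5). Pfkl, the liver-type phosphofructokinase, had 9.69, 9.73 and 9.37 in wildtype and 10.33, 10.01 and 9.71 in knockout cells, a difference of 0.42 (SE 0.19). Knockout replicate 3 lay within the wildtype range. Tpi1, triose phosphate isomerase, had 11.0, 11.08 and 10.96 in wildtype and 11.38, 11.43 and 10.97 in knockout cells, a difference of 0.25 (SE 0.14). Here too knockout replicate 3 stayed among the wildtype arrays.

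Pfkp, the platelet-type phosphofructokinase, ranged from 8.75 on wildtype replicate 2 to 10.45 on wildtype replicate 1, with knockout values between 9.80 and 10.11, and its difference of 0.30 (SE 0.42) became -0.16 without wildtype replicate 2. Pfkm, the muscle type, had a difference of -0.12 (SE 0.22). Hk2, the hexokinase that HIF-1 is known to induce, had the lower mean in knockout cells (8.20 and 7.91, difference -0.29, 95% interval -0.79 to 0.22). Hk1, the widely expressed hexokinase, had a difference of 0.06 (95% interval -0.12 to 0.23) in its brighter row. That row lists a single transcript accession, and 16 further rows list Hk1 together with the ribosomal protein gene Rpl17, so its identity is uncertain. The Hk1 row that lists 8 accessions had a difference of 0.02 (SE 0.16).

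In lower glycolysis, 4 of the 5 measured members had higher means in knockout cells. Pkm, the pyruvate kinase of white blood cells and tumours, had 10.12, 10.17 and 9.70 in wildtype and 11.11, 10.21 and 10.86 in knockout cells. Its groups did not overlap, although knockout replicate 2 exceeded wildtype replicate 2 only slightly, the same arrangement as for Bnip3. The means were 10.00 ± 0.26 and 10.73 ± 0.47 (SD, n = 3 each), 1.67-fold higher (log2 difference 0.74, SE 0.26, unadjusted p 0.0324, adjusted p 1.00 with limma), and the second row gave 0.77 with groups that did not overlap. A value for the whole gene does not separate its splice forms. Pgk1, phosphoglycerate kinase, had 11.22, 11.65 and 11.34 in wildtype and 12.13, 11.82 and 11.62 in knockout cells. Knockout replicate 3 lay just below wildtype replicate 2, and the difference was 0.45 (SE 0.18, unadjusted p 0.0432, adjusted p 1.00 with limma). Ldha, which turns pyruvate into lactate, had 12.51, 12.47 and 12.42 in wildtype and 12.68, 12.65 and 12.51 in knockout cells. Both groups were tight, and the difference was 0.14 (95% interval -0.06 to 0.34). Pgam1, phosphoglycerate mutase, had a difference of 0.33 (SE 0.22), with wildtype replicate 1 at 12.29, among the knockout arrays. Eno2, the neuronal enolase, lay below the array median on all 6 arrays and had a difference of -0.01. Processed copies of glycolytic genes are common in the mouse genome, and rows of Bnip3, Bnip3l, Pkm, Pgk1, Pgam1 and Higd1a may also bind near-identical copies, which makes their values uncertain.

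Among the switches of flux, Pdk1, the kinase that inhibits pyruvate dehydrogenase, had 8.24, 9.02 and 8.59 in wildtype and 9.21, 9.51 and 9.20 in knockout cells. All 3 knockout arrays lay above the wildtype ones, and knockout replicate 2 was the highest, in contrast to Bnip3 and Pkm. The means were 8.62 ± 0.39 and 9.31 ± 0.18 (SD, n = 3 each), 1.62-fold higher (log2 difference 0.69, SE 0.21, unadjusted p 0.0190, adjusted p 1.00 with limma). Pfkfb3, which makes the activator of phosphofructokinase, had 8.17, 7.37 and 8.21 in wildtype and 5.61, 7.67 and 8.17 in knockout cells. The low value lay on knockout replicate 1, the array on which most other members were high, and without it the difference of -0.77 (SE 0.69) was 0.00. Pfkfb4, of the same family, had a difference of -0.13 (SE 0.23).

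The remaining 9 hypoxia targets showed no common direction, with 6 higher and 3 lower means and a median difference of 0.10. P4ha1, a collagen prolyl hydroxylase, had 8.44, 9.41 and 9.10 in wildtype and 9.56, 9.46 and 9.16 in knockout cells, a difference of 0.41 (SE 0.27). Wildtype replicate 1 was the low array, and without it the difference was 0.14. Kdm3a, a histone demethylase induced by hypoxia, had a difference of 0.25 (SE 0.17), and Higd1a, a mitochondrial protein, of 0.22 (SE 0.36). Vegfa, the angiogenic factor that is a classic target of HIF-1, had 8.92, 9.54 and 8.78 in wildtype and 9.38, 7.70 and 8.81 in knockout cells. Knockout replicate 2 was low, and without it the difference of -0.45 (SE 0.46) was 0.02. Ndrg1, a stress-induced growth regulator, had 10.16, 7.19 and 7.12 in wildtype and 9.07, 7.64 and 7.43 in knockout cells. Replicate 1 of each group was high, and without wildtype replicate 1 the difference of -0.11 (SE 0.94) was 0.89. Ddit4, the mTORC1 inhibitor REDD1, had 10.42, 11.14 and 8.33 in wildtype and 10.53, 9.55 and 9.22 in knockout cells. Its lowest value lay on wildtype replicate 3, as for many members, and the difference was -0.20 (SE 0.78). Adm, P4ha2 and Ankrd37 had differences of 0.00, 0.20 and 0.10. Adm and P4ha2 lay below the array median on every array and Ankrd37 on all but 2.

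The spread within groups set a limit for much of the list. The counts given here were made for the members alone, without a share over all genes beside them. Among wildtype arrays 5 members ranged over at least 1 log2 unit, and among knockout arrays 11 did so. The difference between the groups exceeded the larger within-group range for 2 of the 33 members. Leaving out 1 array moved the difference by over 1.5 times or turned its direction for 24 members. The other 9 were Bnip3, Slc2a3, Hk1, Aldoc, Pgk1, Pkm, Ldha, Pdk1 and Hif1a. Omitting knockout replicate 1 left 0.03 for Higd1a, 0.18 for Slc16a3, 0.26 for Pfkl and 0.02 for P4ha2. Omitting wildtype replicate 1 left 0.04 for Bnip3l and 0.16 for Kdm3a and gave 0.56 for Pgam1. Hk2 was at -0.10 and Pgam1 at 0.21 with wildtype replicate 2 omitted, and Tpi1 was at 0.17 with knockout replicate 2 omitted.

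Genes of the same pathways outside the members were read from lists, and 0 of them passed the adjusted limma test. In the HIF system, 12 of 17 measured genes had higher means (median 0.06). For 1 of them every knockout array lay above and for 1 below, 5.88% each, beside 3.65% and 3.51% of all genes. Siah2, a ubiquitin ligase that degrades prolyl hydroxylases, had 9.11, 9.06 and 8.88 in wildtype and 8.74, 8.40 and 8.52 in knockout cells, a difference of -0.46 with every knockout array below. Hif1an, the asparaginyl hydroxylase that inhibits HIF, had 0.22 with every knockout array above. Ep300 and Crebbp, acetyltransferase co-activators of HIF-1, had 0.23 each, and the partner Arnt 0.03. Of 36 further hypoxia targets, 19 had higher means, with a median of 0.002, close to that of all genes. Every knockout array lay above for 1, Pgm1, and below for 1, Ppp1r3c, 2.78% each. Pgm1, a phosphoglucomutase, stood apart among them at 1.07 (SE 0.11, adjusted p 0.621), and Narf, Ppp1r3c and Tmem45a had 0.26, -0.15 and -0.20. Of 17 other genes of glucose use, 10 had higher means (median 0.006). For 2, Pgam2 and Tigar, every knockout array lay above, and for 2, Adpgk and Slc16a1, below, 11.8% each. Pgam2 (6.18 to 6.63) and Tigar (6.51 to 6.76) lay near the array medians and Ppp1r3c (5.12 to 5.35) below them, so these values may be background. Adpgk, an ADP-dependent glucokinase, had 9.62, 9.51 and 9.51 in wildtype and 9.07, 9.25 and 9.14 in knockout cells, a difference of -0.39. Pgam2, Slc16a1, Galm and Tigar had 0.31, -0.32, -0.21 and 0.10.

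Genes of pyruvate entry into the citrate cycle, which here include kinases that inhibit pyruvate dehydrogenase, had higher means for 5 of 12 (median -0.03). The kinases Pdk3 and Pdk2 were at 0.34 and 0.52, the phosphatase Pdp2 at -0.38 and pyruvate carboxylase, Pcx, at -1.0 (SE 0.80). Pentose phosphate enzymes had higher means for 1 of 6 (median -0.02), with Rpia, Tkt, Pgls and Rpe at -0.32, -0.07, -0.03 and -0.02. Other mitophagy genes had higher means for 9 of 11 (median 0.06), with Pink1 at 0.66 (SE 0.29), Map1lc3b at 0.16, Fundc1 at 0.26 and Gabarapl2 at 0.10. The medians of these pathway lists thus lay between -0.03 and 0.06, and that of the members at 0.25. Those of the marker lists below ranged from -0.381 (immediate early and heat shock) to 0.642 (late neutrophil), with B cell markers at 0.295. The difference between the lists was not tested.

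**Figure D4:**
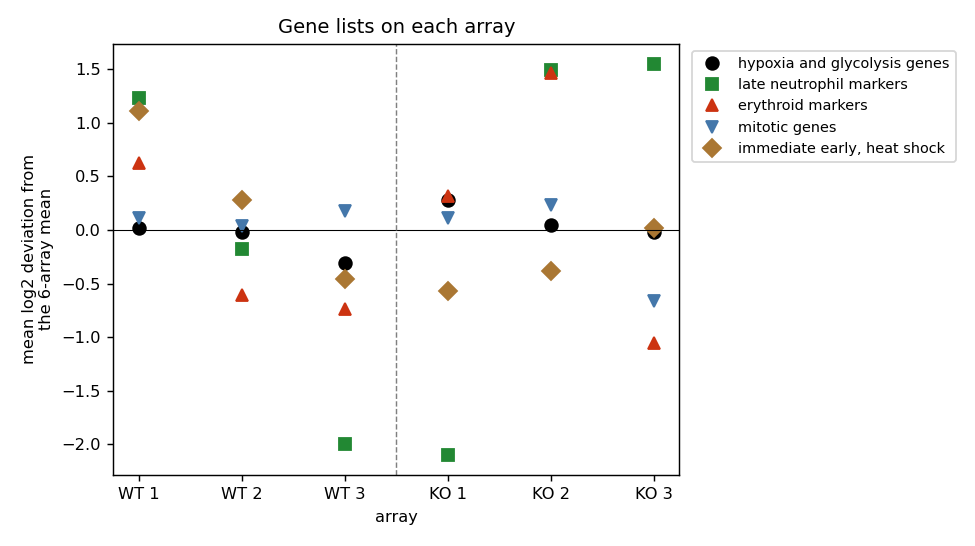
Mean log2 deviation from the 6-array mean of the 33 hypoxia and glycolysis genes and of 4 marker lists on each AES wildtype (WT) and knockout (KO) array, 1 symbol per list. Late neutrophil markers are low on wildtype replicate 3 (-2.0) and knockout replicate 1 (-2.10), the arrays where the hypoxia and glycolysis genes are lowest (-0.31) and highest (0.28).

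Marker lists of other cells and states were set beside the members on each array. Late neutrophil markers, 10 of 10 measured, had higher means in knockout cells for all 10 (median log2 difference 0.642), where 50.9% of all genes did. The groups overlapped for each of them. Their mean deviations were 1.23, -0.18 and -2.0 in wildtype and -2.10, 1.49 and 1.55 in knockout cells. The arrays lowest in these markers were therefore both the lowest and the highest for the members. Mitotic genes, 9 of 10 measured, were low on knockout replicate 3 (-0.66) and between 0.04 and 0.23 elsewhere. All 9 had lower means in knockout cells (median -0.202). Immediate early and heat shock genes, 8 of 9 measured, had 1 higher and 7 lower means in knockout cells, where 50.9% of all genes were higher. Their deviations were 1.11, 0.28 and -0.46 in wildtype and -0.57, -0.38 and 0.02 in knockout cells. Every knockout array lay below every wildtype array for 3 of the 8 (37.5%), against 3.51% of all genes. These 3 were Hspa1a (-2.17), Jun (-0.43) and Dusp1 (-0.34), and 0 of the 8 passed the adjusted limma test. Egr1 had the higher mean (0.39). Red pulp macrophage markers, 10 of 10 measured, ranged from -0.52 to 0.54 in wildtype and from -0.59 to 1.00 in knockout cells. B cell markers, 6 of 7 measured, ranged from -0.46 to 0.18 in wildtype and from -0.57 to 0.77 in knockout cells. All 6 had higher means in knockout cells (median 0.295), and all 6 were highest on knockout replicate 3. Only Cd79b (6.87 to 9.10, difference 0.02) lay above the array median on every array, so the values of the others may in part be background. T and natural killer cell markers, 7 of 8 measured, had mean deviations between -0.20 and 0.28, endothelial and stromal markers, 7 of 7, between -0.12 and 0.20, and megakaryocyte markers, 4 of 5, between -0.32 and 0.42. The part of these lists in the members' values was not tested.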

How the data were processed

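RNA of 3 AES wildtype and 3 AES knockout samples was labelled with biotin and hybridised to arrays, per the labels. The row identifiers are those of an Affymetrix Mouse Gene array. The processed table that the authors deposited was used as log2 values. The base was taken from the range of 2.67 to 14.4, and the background correction, the probe summary and the normalization are not stated in the labels or the file. Of 35512 rows, 1 had no value. The platform annotation gave 1 symbol to 21789 rows, several to 1621 and none to 12101. Symbols were updated by gene identifier through the GRCm38.p6 gene table (21698 rows matched). The row with the highest 6-array mean was kept for each of 19938 genes, 999 of which had several rows.

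Knockout was compared with wildtype with limma 3.58.1 in R 4.3.3 (lmFit and eBayes, two-sided, no block, no filter), adjusted by Benjamini-Hochberg over all genes at 0.05. Single values were also compared by an exact permutation test. The fit was tested on simulated data. The members and lists were chosen with earlier results of these data known. Members were given on every array where groups did not overlap, for the 12 smallest unadjusted p, and for Hif1a, Egln1 and Egln3, and for 7 others named in the text after their values were seen, among them Bnip3l. Up to 4 genes per other list were named by smallest unadjusted p. Arnt, Tigar, Hif3a, Ndufa4l2 and single marker genes were named outside that rule. Same-numbered samples did not deviate together (correlations of -0.259, -0.228 and 0.075 over genes), so the numbers were not used as pairs. Figures used Python 3.11.15 and matplotlib 3.10.9. Promoter sequences came from RefSeq, GRCm38.p6.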

Additional observations from a re-analysis of the deposited data

How the results depend on the processing

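The alternatives were quantile normalization, median centring, leaving out dim genes (28 members kept), array weights, averaging all rows of a gene, a block for the replicate number, trended and robust eBayes and each array left out in turn. The row with most accessions and a test without variance moderation were chosen after seeing the data. The median difference of the members stayed between 0.16 and 0.36. The number with a higher mean was between 23 and 27 of 33, and 20 of the 28 members kept when dim genes were left out. No member passed under any alternative (smallest adjusted p 0.897). Over all genes 0 were called with all arrays (505 at an unadjusted p under 0.05). Each alternative also called 0, except leaving out knockout replicate 2, where 3 were lower: Tle5, Kdm5d and Uty. With the replicate block the members' median was 0.249 and 0 genes were called. Of 457 member values, 434 kept their direction and 23 reversed. The block, trended and robust eBayes and leaving out dim genes cannot change a member's log2 difference in this balanced design. Averaging rows and the row with most accessions can change only members with several rows. The values fixed in this way are among the 434 by construction. Eno2 was 0.01 with quantile normalization and 0.02 with median centring, and with array weights Adm was -0.12 and Ndrg1 0.16; the cause was not tested. With single arrays left out, reversals occurred within these ranges: Adm -0.12 to 0.11, Ddit4 -1.01 to 0.39, Egln3 -0.06 to 1.54, Eno2 -0.08 to 0.03, Ndrg1 -0.63 to 0.89, Pfkfb4 -0.40 to 0.01, Pfkm -0.32 to 0.07, Pfkp -0.16 to 0.69, Slc2a1 -0.39 to 0.69 and Vegfa -0.82 to 0.02. With median centring Aldoc replaced Aldoa among the 5 members whose groups did not overlap. The signal over background is unknown, which limits Adm, Eno2 and P4ha2 most.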

Other observations

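Several members had more than 1 row, and the rows differed in how far apart the groups lay. The standard errors here come from a limma fit over all 21789 rows with a single symbol, and can differ slightly from those of the fit over 19938 genes. For Higd1a the brighter row had a difference of 0.22 (SE 0.35) and the other 0.34 (SE 0.18). For Bnip3l the dimmer row had 11.78, 12.11 and 12.11 in wildtype and 12.12, 12.19 and 12.19 in knockout cells, so that its groups did not overlap, while those of the brighter row did. For Bnip3 the reverse held, and the difference was 1.21 in the brighter and 0.88 in the dimmer row. The 3 rows of Pgk1 gave 0.45, 0.45 and 0.47, the first pair with identical values, and those of Pgam1 gave 0.33, 0.32 and 0.32, the second pair identical.

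Hif3a, which encodes a HIF subunit that can act as an inhibitor, had 9.31, 7.12 and 6.02 in wildtype and 9.08, 7.47 and 7.49 in knockout cells. It was high on replicate 1 of both groups, as was Ndrg1. Ndufa4l2, a mitochondrial hypoxia target, had 6.75, 5.92 and 6.15 in wildtype and 6.49, 5.90 and 9.39 in knockout cells, with knockout replicate 3 alone high. Both genes were singled out after their values were seen, and neither passed (limma adjusted p 1.00 each).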
